A study of Homo sapiens with 24 samples.

Results

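The SLC25 genes encode the mitochondrial carriers, and their transcripts were followed in MOLT4 cells over the first hours of exposure to SK-3-91. Members were all genes of the deposited table whose symbol is SLC25A followed by a number, which gave 36 of 9822 genes. Of these, 35 are described, and every count of members is over them: 34 encode carriers and 1, SLC25A25-AS1, is a noncoding RNA transcribed antisense to SLC25A25. RefSeq lists 48 protein-coding genes with such symbols; those not described, SLC25A6 and SLC25A43 among them, are not reported here. All 35 passed the filter on low counts, and the lowest count of any member in any library was 1.

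MOLT4 is an established human line of T-cell acute lymphoblastic leukaemia. SK-3-91 is described by the submitters as a degrader acting on kinases at large; molecules of that class bring a target protein to a ubiquitin ligase. Cultures in RPMI1640 with serum received SK-3-91 or its solvent DMSO for 1, 4 or 8 h, and each of the 6 groups held 4 RNA-seq libraries. No source used here gives the dose, the groups share 1 cell line, and nothing says that the 4 libraries of a group came from separate cultures, so the p-values may measure technical spread only.

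Mitochondrial carriers are made in the cytosol from nuclear genes, and nearly all of them are threaded into the inner mitochondrial membrane by the TIM22 translocase. Each moves a particular set of small molecules between cytosol and matrix, such as ATP for ADP, phosphate, amino acids, citrate, vitamins, nucleotides or iron. They join pathways split between both compartments, including oxidative phosphorylation, the malate-aspartate shuttle, haem synthesis, one-carbon metabolism and the copying of mitochondrial DNA. In dividing leukaemia cells these routes supply both energy and building blocks.

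Counted reads per library, in megareads, averaged 14.1 ± 0.126, 14.4 ± 0.117 and 14.2 ± 0.464 in DMSO at 1, 4 and 8 h, and 13.6 ± 0.0321, 10.8 ± 0.0975 and 8.3 ± 0.982 in SK-3-91 (SD, n = 4). Levels are counts per megaread of scaled depth (CPM) scaled by the trimmed mean of M values (TMM), so a fold change is relative to the other transcripts; in bulk RNA, fewer cells and less RNA per cell cannot be told apart. Of 12 T-lineage leukaemia markers, 11 were measured, at a summed 3630 to 4470 CPM in every library. Single markers parted under that sum: at 8 h 3 were higher in SK-3-91 and 7 lower, with CD3E at 1110 CPM in DMSO and 2470 CPM in SK-3-91, CD2 at 95.6 and 7.05 CPM and NOTCH1 at 881 and 297 CPM (means, n = 4). CD79A, the measured 1 of 5 B-cell markers, lay between 6.35 and 10.7 CPM in DMSO and 1 h SK-3-91 libraries, 16.4 to 18.6 CPM in SK-3-91 at 4 h and 23.3 to 30.5 CPM at 8 h; PECAM1, 1 of 5 stromal markers, was 15.7 to 20.8 CPM in SK-3-91 at 8 h and 29.3 to 43.7 CPM elsewhere. Whether these shifts have a part in the carrier results was not tested.

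The promoters of 4 carriers are shown for a motif and for their course, chosen after both were seen. SLC25A25, SLC25A33 and SLC25A36, the last being the member that rose most at 8 h, are those of the members searched that hold a full cAMP response element, and SLC25A44, which like SLC25A25 and SLC25A33 fell at 1 h and rose at 8 h, holds its core. RefSeq promoters (build GRCh38.p14, plus strand for all 4) matched 30 of the 35 members. For each gene 1 annotated start was searched, and counts per gene do not show which start was in use. Each line gives the 250 bases before the annotated start, 5′ to 3′. Capitals mark that element, TGACGTCA, which transcription factors of the CREB family bind, or for SLC25A44 its core TGACG on the opposite strand.
SLC25A25 (chr9:128098257-128098506): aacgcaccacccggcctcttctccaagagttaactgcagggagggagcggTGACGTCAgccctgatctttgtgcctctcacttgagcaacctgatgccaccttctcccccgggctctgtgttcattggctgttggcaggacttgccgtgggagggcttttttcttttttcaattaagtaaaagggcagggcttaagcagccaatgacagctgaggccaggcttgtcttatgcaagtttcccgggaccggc
SLC25A33 (chr1:9539215-9539464): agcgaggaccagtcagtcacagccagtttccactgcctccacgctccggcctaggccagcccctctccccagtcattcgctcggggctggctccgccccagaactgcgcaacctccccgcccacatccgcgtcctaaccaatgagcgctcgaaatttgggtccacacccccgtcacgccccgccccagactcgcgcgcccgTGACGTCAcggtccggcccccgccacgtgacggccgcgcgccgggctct
SLC25A36 (chr3:140941586-140941835): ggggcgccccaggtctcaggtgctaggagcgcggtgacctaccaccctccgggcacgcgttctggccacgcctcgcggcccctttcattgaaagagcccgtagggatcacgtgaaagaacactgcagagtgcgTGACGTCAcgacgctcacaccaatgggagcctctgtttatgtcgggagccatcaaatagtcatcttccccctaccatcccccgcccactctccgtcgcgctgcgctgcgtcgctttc
SLC25A44 (chr1:156193854-156194103): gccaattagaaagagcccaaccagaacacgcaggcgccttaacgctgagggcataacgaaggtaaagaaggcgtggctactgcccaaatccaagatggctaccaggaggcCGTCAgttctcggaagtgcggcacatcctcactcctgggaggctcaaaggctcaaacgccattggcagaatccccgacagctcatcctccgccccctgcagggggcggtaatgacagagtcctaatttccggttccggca
The full element began 200 bases before the start in SLC25A25, 49 bases before it in SLC25A33 and 117 bases before it in SLC25A36. In windows of 250 bases before to 50 after the start, and on both strands, it was present in 3 of 30 members (10.0%), in 2.0% of 27305 RefSeq promoters and in 3.6% of the 7931 promoters of genes in the table. The core alone, which every full element contains, was present in 12 of 30 members (40.0%) against 25% and 36.1%. Of the other members that fell at 1 h and rose at 8 h, SLC25A26 and SLC25A28 held neither, and SLC25A30 was not searched. Members of other courses held the core as well. They were SLC25A1, SLC25A3, SLC25A23 and SLC25A39, higher at each time, SLC25A13, SLC25A40 and SLC25A46, lower at 4 and 8 h, and SLC25A24.

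Other letters searched were the E-box CACGTG, found in 6 members (20%; 7.4% of all promoters and 10.9% of those in the table), and the ETS and GABPA motif CCGGAAGT, found in 3 (10.0%; 4.4% and 9.9%). The SP1 box GGGCGG was in 20 members (66.7%; 44.6% and 71.8%) and the CCAAT box in 14 (46.7%; 35.7% and 37.3%). SLC25A33 and SLC25A36 carried an E-box as well as the full cAMP element. Median GC content was 67.6% in the members' windows, 58.3% in all promoters and 65.7% in promoters of genes in the table, and these matches describe letters, not binding.

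Before any drug response, carrier levels spanned more than 2 orders of magnitude. Per kilobase of the gene width deposited with the counts, the DMSO libraries of 1 h held 297 ± 21.1 CPM per kb of SLC25A5, the ADP/ATP carrier ANT2, 131 ± 6.48 of SLC25A3, the phosphate carrier, and 105 ± 3.29 of SLC25A39, a glutathione carrier (SD, n = 4). The next level was that of SLC25A46, an outer-membrane protein of mitochondrial shape and lipid balance, at 45.2 ± 0.719 CPM per kb. Least abundant were SLC25A13, the aspartate/glutamate carrier citrin, at 1.56 ± 0.134 and SLC25A21, the oxodicarboxylate carrier, at 0.864 ± 0.132 CPM per kb. In this order, 17 of 34 neighbouring pairs of members had overlapping libraries, whereas the top 4 each stood clear of the next.

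**Figure D1:**
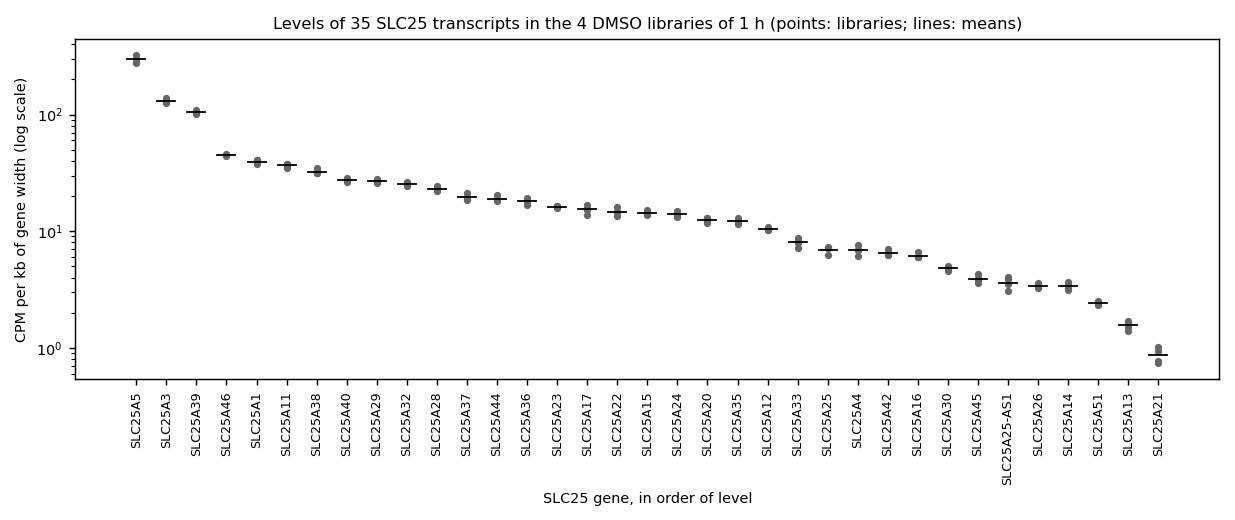
Level of each of 35 SLC25 transcripts in DMSO at 1 h, in CPM per kb of deposited gene width on a log axis; grey points are the 4 libraries and the line is their mean. SLC25A5, SLC25A3 and SLC25A39 stand above 100 CPM per kb and SLC25A21 is the lowest at 0.864.

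SK-3-91 moved carriers in both directions, from falls of 9.42-fold in the scarce SLC25A21 and 4.99-fold in SLC25A12 to a 4.02-fold rise of SLC25A36, all at 8 h. At 1 h, 12 members were higher than in DMSO and 8 lower (edgeR quasi-likelihood F test, Benjamini-Hochberg adjusted p under 0.05 over all genes), that is 34.3% and 22.9% of members beside 24.9% and 29.4% of all genes. At 4 h, 19 were higher and 13 lower, 54.3% and 37.1% beside 42% and 45.9%. At 8 h, 17 were higher and 14 lower, 48.6% and 40% beside 41.3% and 48.1%. The members' median log2 fold change was 0.11, 0.17 and 0.09 at 1, 4 and 8 h, and that of all genes 0.01, -0.05 and -0.11, with a median standard error per member of 0.05 to 0.06.

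Large changes were fewer. At 1 h, 1 member (2.86%) was at least 2-fold lower, SLC25A25, where 3.25% of all genes were. At 4 h, 5 members were at least 2-fold higher (14.3% beside 9.2% of all genes) and 2 at least 2-fold lower (5.71% beside 18.2%). At 8 h, 9 were at least 2-fold higher (25.7% beside 16.8%) and 4 at least 2-fold lower (11.4% beside 23.5%). Reads of members as a share of all counted reads were 0.299% ± 0.00665, 0.309% ± 0.00585 and 0.306% ± 0.00394 in DMSO and 0.317% ± 0.00283, 0.371% ± 0.0065 and 0.359% ± 0.00956 in SK-3-91 at 1, 4 and 8 h (SD, n = 4). Without the 3 most abundant, SLC25A3, SLC25A5 and SLC25A39, the shares were 0.175%, 0.182% and 0.177% in DMSO and 0.175%, 0.174% and 0.178% in SK-3-91.

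The split depends on the scaling, and at the later times its direction does too. At 1 h, relative log expression (RLE) factors gave 48.6% of members higher and 22.9% lower, beside 33.1% and 26.2% of all genes. SLC25A12, SLC25A15, SLC25A24, SLC25A35 and SLC25A36 gained a call as higher there (adjusted p of 0.00871 to 0.0227). Fits on the 8 libraries of 1 h alone gave the same shares of members, beside 29.5% and 30.4% of all genes. With library totals alone and no scaling factors, the median of all genes moved to -0.35 at 4 h and -0.54 at 8 h, and the split of members to 11 higher and 18 lower at 4 h (31.4% and 51.4% beside 29.2% and 58.6% of all genes) and 12 higher and 22 lower at 8 h (34.3% and 62.9% beside 28.3% and 62.6%). Upper-quartile factors gave 13 higher and 17 lower at 8 h (37.1% and 48.6% beside 36.4% and 54%). Of members at least 2-fold higher with TMM, SLC25A36 (1.02) alone stayed so at 4 h without scaling factors. At 8 h SLC25A36 (1.58), SLC25A25-AS1 (1.31) and SLC25A39 (1.18) did. SLC25A17 (-1.19) joined those at least 2-fold lower at 4 h. SLC25A4 (-1.18), SLC25A11 (-1.26), SLC25A32 (-1.31) and SLC25A42 (-1.04) joined them at 8 h. These are log2 fold changes, and shares of all genes at that fold are not given. Of the members called with TMM, 11 of 19 higher and 11 of 13 lower at 4 h kept their call and direction under TMM, relative log expression (RLE), upper-quartile and no scaling factors, as did 12 of 17 higher and 13 of 14 lower at 8 h. How many of all called genes kept theirs was not counted, so these counts are not read as particular to carriers. Members whose direction turned are named with their results.

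**Figure D2:**
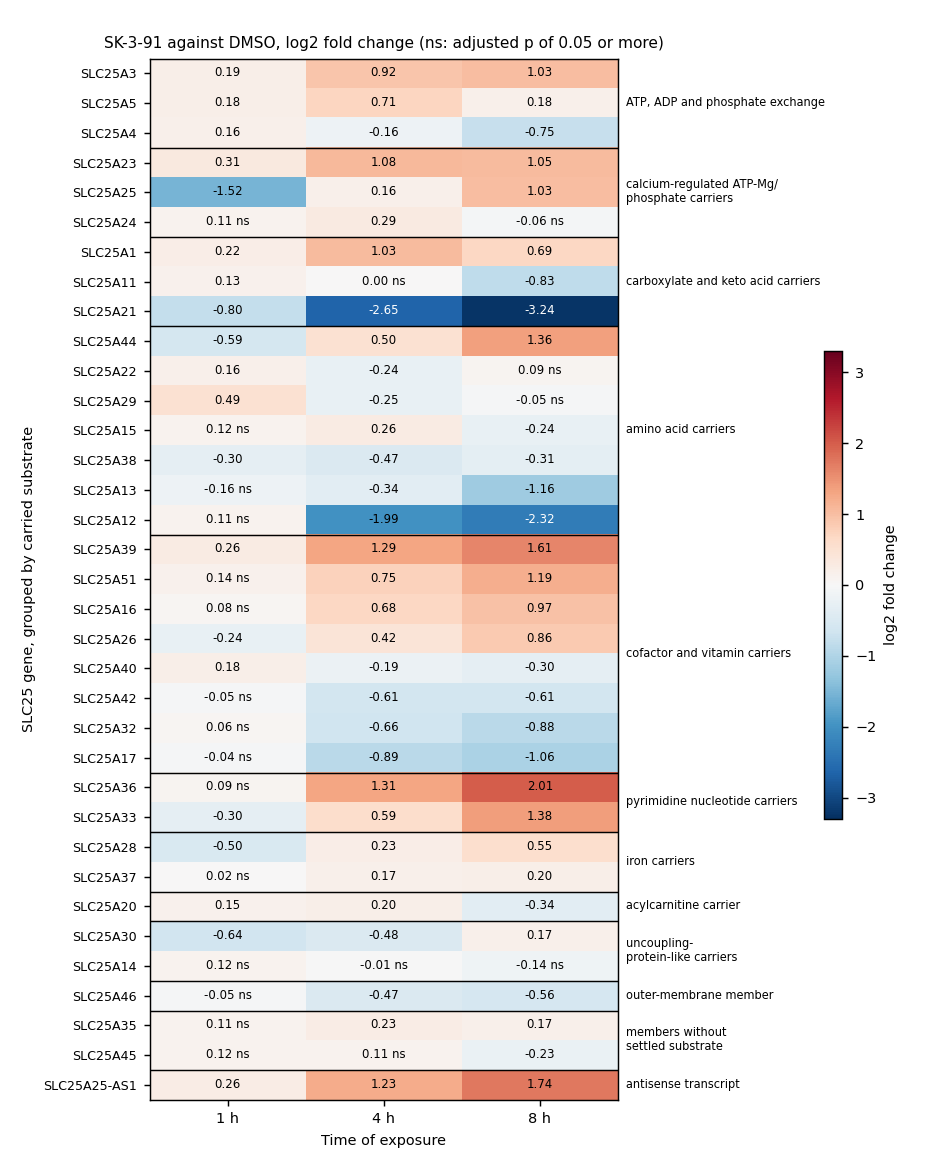
Log2 fold change of SK-3-91 against DMSO for 35 SLC25 transcripts (rows, grouped by carried substrate) at 1, 4 and 8 h (columns); red is higher, blue lower, and ns marks an adjusted p of 0.05 or more. The darkest cells are SLC25A21 at -2.65 and -3.24 and SLC25A12 at -1.99 and -2.32 on the low side, at 4 and 8 h, and SLC25A36 at 2.01 on the high side. Without scaling factors the sign turned at 4 h for SLC25A11, SLC25A15, SLC25A20, SLC25A24, SLC25A25, SLC25A28, SLC25A35, SLC25A37 and SLC25A45, and at 8 h for SLC25A5, SLC25A22, SLC25A30, SLC25A35 and SLC25A37.

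Among carriers of ATP, ADP and phosphate, which feed and drain the ATP synthase, the 3 measured members rose slightly at 1 h and then parted. SLC25A3 rose from 460 to 502 CPM in the DMSO libraries of 4 h to 890 to 930 CPM with SK-3-91, and from 472 to 503 to 908 to 1070 CPM at 8 h. Its log2 fold changes were 0.19 ± 0.04, 0.92 ± 0.04 and 1.03 ± 0.04 (SE) at the 3 times, and the groups were apart at each. SLC25A5 (ANT2) rose by 0.71 ± 0.05 at 4 h, from 404 to 461 CPM to 677 to 757 CPM.

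At 8 h SLC25A5 was 0.18 ± 0.05 higher (428 to 474 against 479 to 568 CPM), a rise that turned to -0.25 without scaling factors. Of its sequence, 30.68% of 32-base words recur in other genes, pseudogenes of SLC25A5 among them, so its counts are uncertain. SLC25A4, the ADP/ATP carrier ANT1 that predominates in muscle, instead fell at 8 h by 0.75 ± 0.07 on the log2 scale, from 35.8 to 37.1 CPM to 20.6 to 22.2 CPM. Its rise of 0.16 ± 0.06 at 1 h and fall of 0.16 ± 0.06 at 4 h were small: the first gave an adjusted p of 0.0999 without DMSO 1 h replicate 3 and the second 0.0536 without SK-3-91 4 h replicate 3.

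The calcium-regulated carriers, which exchange ATP-Mg for phosphate and carry calcium-binding domains, gave the largest early change of the family. SLC25A25 (SCaMC-2) read 33.4, 33.2, 29 and 33.9 CPM in the DMSO libraries of 1 h and 10.2, 11.8, 12.6 and 10.3 CPM with SK-3-91. All 4 treated libraries lay far below all 4 controls, a fall of 1.52 ± 0.07 on the log2 scale, or 2.87-fold (adjusted p = 1.06e-20). At 4 h the libraries read 33, 31.7, 34.4 and 33.4 CPM in DMSO and 40.4, 35.9, 34.1 and 37.2 CPM in SK-3-91. The 4 h groups overlapped, and the log2 fold change of 0.16 ± 0.06 (adjusted p = 0.0225) turned to -0.14 without scaling factors, gave 0.065 as its adjusted p without DMSO 4 h replicate 2 and 0.13 without SK-3-91 4 h replicate 1.

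By 8 h SLC25A25 stood above its controls, at 71.4, 68.7, 64.7 and 75.7 CPM against 35.5, 34, 33.5 and 34.8 CPM. The groups were far apart, with a log2 fold change of 1.03 ± 0.06 (adjusted p = 5.58e-19). In DMSO the gene differed by 0.03 ± 0.06 from 1 to 4 h (adjusted p = 0.707) and by 0.06 ± 0.06 from 4 to 8 h (adjusted p = 0.51).

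SLC25A25-AS1, the antisense RNA of that locus, did not share the early fall. Its level at 1 h was 12.1, 13.8, 15.8 and 15.2 CPM in DMSO and 17.6, 16.2, 18 and 16.2 CPM in SK-3-91, a rise of 0.26 ± 0.09 whose adjusted p of 0.014 became 0.0906 without DMSO 1 h replicate 1. At 4 h the values were 11.4, 10.7, 10.9 and 12.8 CPM against 27.1, 26.6, 27 and 27.1 CPM. At 8 h they were 13.5, 10.5, 10 and 12.4 CPM against 38.5, 37.9, 33.8 and 44.6 CPM. Both later comparisons left the groups apart, with log2 fold changes of 1.23 ± 0.09 and 1.74 ± 0.09. The 2 transcripts overlap on opposite strands over 16.21% of the exon bases of SLC25A25 (other opposite-strand genes included) and 10.41% of those of the antisense RNA; as no source used here gives the strand setting of the counting, reads from that overlap cannot be told apart.

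The related SLC25A23 (SCaMC-3) rose at every time. At 1 h its libraries read 65.8, 64.8, 67 and 68.3 CPM in DMSO and 83.6, 81.9, 80 and 84.8 CPM in SK-3-91, and at 4 h 64.2, 62.6, 62.7 and 61.4 CPM against 140, 132, 138 and 120 CPM. No treated library reached down to its controls, and the log2 fold changes were 0.31 ± 0.05, 1.08 ± 0.05 and 1.05 ± 0.05 at 1, 4 and 8 h. SLC25A24 (SCaMC-1) differed from DMSO by 0.11 ± 0.05 at 1 h (adjusted p = 0.0931) and by -0.06 ± 0.06 at 8 h (adjusted p = 0.346). Its 8 h value was -0.49 without scaling factors (adjusted p = 5.91e-10) and -0.225 with upper-quartile factors (adjusted p = 0.000665). The rise of SLC25A24 by 0.29 ± 0.05 at 4 h turned to -0.01 without scaling factors.

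Of the 3 carriers of carboxylates and keto acids, SLC25A1 rose throughout, SLC25A21 fell throughout and SLC25A11 fell late. SLC25A1, the citrate carrier that supplies cytosolic acetyl-CoA for lipid synthesis, went from 79.7 to 87.4 CPM in DMSO to 166 to 174 CPM in SK-3-91 at 4 h, a log2 fold change of 1.03 ± 0.05. At 8 h it was 105 to 116 CPM in DMSO and 168 to 196 CPM in SK-3-91 (0.69 ± 0.05). SLC25A11, the oxoglutarate/malate carrier of the malate-aspartate shuttle, read 103.9, 108.7, 104.5 and 115.7 CPM in DMSO and 61.4, 65.7, 59.9 and 57 CPM in SK-3-91 at 8 h. The groups were far apart, at -0.83 ± 0.05. Its rise of 0.13 ± 0.05 at 1 h gave an adjusted p of 0.0575 without DMSO 1 h replicate 3, and at 4 h it stood at 0.00 ± 0.05 (adjusted p = 0.933), which turned to -0.295 without scaling factors (adjusted p = 2.5e-07).

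SLC25A21, the oxodicarboxylate carrier of lysine and tryptophan breakdown, was the least abundant member and is read from few counts. Summed over 4 libraries it had 221 counts in DMSO and 120 in SK-3-91 at 1 h, 302 and 29 at 4 h, and 201 and 9 at 8 h. Scaled for depth, DMSO exceeded SK-3-91 by 1.74-fold (1.39 to 2.2), 6.32-fold (4.31 to 9.61) and 9.66-fold (4.99 to 21.4), with 95% exact binomial intervals that cover counting error only. The fitted log2 fold changes were -0.80 ± 0.17, -2.65 ± 0.23 and -3.24 ± 0.34. Exons of other genes lie opposite 28.81% of its exon bases, and its counts are uncertain to that extent.

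Of 7 amino acid carriers, 2 were higher and 5 lower at 4 h, beside 42% and 45.9% of all genes. At 8 h 1 was higher and 4 lower, beside 41.3% and 48.1%, and a split in so small a group is not read as particular to it. The 4 h call of SLC25A13 was lost with RLE factors (adjusted p = 0.0852), and the 4 h rise of SLC25A15 turned without scaling factors. SLC25A12 (aralar), the aspartate/glutamate carrier of the malate-aspartate shuttle, read 49, 46.1, 46.8 and 45.5 CPM in DMSO and 49.2, 50.6, 49.9 and 53.2 CPM in SK-3-91 at 1 h, with no passing difference (0.11 ± 0.05, adjusted p = 0.0716). At 4 h it read 52.4, 53.5, 56 and 59.2 CPM in DMSO and 13.2, 13.8, 13 and 15.8 CPM in SK-3-91. At 8 h the values were 51.6, 51.2, 50.6 and 47 CPM against 8.85, 12, 8.12 and 10.7 CPM. Treated libraries were thus 3.96-fold and 4.99-fold lower, at -1.99 ± 0.07 (adjusted p = 2.23e-26) and -2.32 ± 0.08 (adjusted p = 2.39e-26) on the log2 scale, with no overlap.

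Its sister SLC25A13 (citrin), which does the same exchange, was scarce: 4.22 to 4.96 CPM in DMSO and 0.843 to 2.61 CPM in SK-3-91 at 8 h, a fall of 1.16 ± 0.21. SK-3-91 8 h replicate 1 held the lowest of these values. The 4 h difference of -0.34 ± 0.16 had an adjusted p of 0.0476, which rose to between 0.054 and 0.248 when any of DMSO 4 h replicates 2, 3 and 4 or SK-3-91 4 h replicates 2 and 3 was left out.

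SLC25A44, which brings branched-chain amino acids into mitochondria, followed the course of SLC25A25. At 1 h it read 75.7, 70.1, 67.5 and 69 CPM in DMSO and 46.6, 46.2, 48.1 and 46.8 CPM in SK-3-91. At 4 h the order had turned, with 73.8, 74.6, 74.6 and 71.7 CPM in DMSO and 108, 95.8, 108 and 106 CPM in SK-3-91. At 8 h DMSO libraries held 76.6, 70.9, 73 and 73 CPM and treated libraries 186, 193, 167 and 203 CPM. The groups were apart at each time, below at 1 h (-0.59 ± 0.05), above at 4 h (0.50 ± 0.05) and further above at 8 h (1.36 ± 0.05, adjusted p = 2.91e-26).

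SLC25A29, a carrier of arginine, lysine and ornithine, showed the largest rise of the family at 1 h, from 75.2, 77.7, 73.5 and 78.7 CPM to 115, 104, 108 and 102 CPM. That rise was 0.49 ± 0.05 on the log2 scale (adjusted p = 4.5e-10), with the groups apart. By 4 h it was lower than DMSO, at 54.9 to 56.5 CPM against 61.3 to 70.6 CPM (-0.25 ± 0.06), and at 8 h the groups overlapped (-0.05 ± 0.06, adjusted p = 0.446). Its 8 h value was -0.481 without scaling factors (adjusted p = 4.88e-09) and -0.217 with upper-quartile factors (adjusted p = 0.00131). The glutamate carrier SLC25A22 went the same way, 0.16 ± 0.05 higher at 1 h and 0.24 ± 0.05 lower at 4 h on the log2 scale, while its 8 h value of 0.09 ± 0.05 (adjusted p = 0.0823) turned to -0.34 without scaling factors.

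SLC25A38, the glycine carrier needed for haem synthesis, was lower at all times by modest amounts (-0.30 ± 0.05, -0.47 ± 0.05 and -0.31 ± 0.05). The ornithine carrier SLC25A15 rose at 4 h by 0.26 ± 0.05, which turned to -0.04 without scaling factors, and fell at 8 h by 0.24 ± 0.06.

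Of 8 carriers of cofactors and vitamins, 4 were higher and 4 lower at both 4 and 8 h. Beside them, 42% of all genes were higher and 45.9% lower at 4 h, and 41.3% and 48.1% at 8 h. The 4 h rise of SLC25A26 lost its call without scaling factors. SLC25A17, a peroxisomal carrier of coenzyme A, FAD and related cofactors, fell late. At 4 h it read 45.4, 48.3, 48.9 and 48.5 CPM in DMSO and 24.7, 30, 22.1 and 26.6 CPM in SK-3-91, and at 8 h 44.4, 43.6, 40.1 and 42 CPM against 19, 21.8, 20.7 and 20.4 CPM. Treated libraries were below controls without overlap (-0.89 ± 0.07 and -1.06 ± 0.08). At 1 h it differed by -0.04 ± 0.06 (adjusted p = 0.639).

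SLC25A32, the folate and FAD carrier of mitochondrial one-carbon metabolism, read 81.5, 83.7, 82.4 and 79.5 CPM in DMSO and 48.5, 53.8, 52.1 and 52.5 CPM in SK-3-91 at 4 h. At 8 h the values were 67.2, 71.1, 65.7 and 68 CPM against 39.1, 40.3, 36.1 and 31.6 CPM. The groups were apart at both times (-0.66 ± 0.05 and -0.88 ± 0.06). Of its 32-base words, 77.92% recur elsewhere, mostly in AC012213.5, a gene model overlapping it on the same strand, and its counts are uncertain. SLC25A42, a coenzyme A carrier, read 34.5, 34.8, 35.6 and 36 CPM in DMSO and 22.7, 24, 24.6 and 21.2 CPM in SK-3-91 at 4 h, again without overlap. Against DMSO, SLC25A42 was 0.61 ± 0.07 lower on the log2 scale at 4 h and 0.61 ± 0.07 lower at 8 h. At 1 h it showed no passing difference (-0.05 ± 0.06, adjusted p = 0.515). Its means at 1, 4 and 8 h were 26, 23.1 and 24.4 CPM in SK-3-91 and 26.9, 35.2 and 37.4 CPM in DMSO.

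In the other direction, SLC25A39, which imports glutathione, rose at each time from an already high level. At 1 h it read 250, 240, 238 and 254 CPM in DMSO and 308, 288, 289 and 289 CPM in SK-3-91. At 4 h it read 231, 228, 236 and 241 CPM against 590, 588, 532 and 580 CPM. At 8 h DMSO libraries held 242, 246, 227 and 269 CPM and treated libraries 750, 740, 818 and 697 CPM. The groups never overlapped, and the log2 fold changes grew from 0.26 ± 0.05 to 1.29 ± 0.05 and 1.61 ± 0.05 (3.05-fold, adjusted p = 8.16e-30). SLC25A40, its close relative, rose by 0.18 ± 0.04 at 1 h and then fell by 0.19 ± 0.04 and 0.30 ± 0.05.

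Further cofactor carriers rose at 4 and 8 h. SLC25A51, the mitochondrial NAD carrier, rose by 0.75 ± 0.09 and 1.19 ± 0.09, reaching 24.1 to 26.8 CPM at 8 h against 10.8 to 12.1 CPM in DMSO; 31.2% of its 32-base words recur, chiefly in SLC25A52, so its counts are uncertain. SLC25A16, linked to coenzyme A transport, rose by 0.68 ± 0.08 and 0.97 ± 0.08. SLC25A26, which imports S-adenosylmethionine, fell by 0.24 ± 0.07 at 1 h, then rose by 0.42 ± 0.07 and 0.86 ± 0.08.

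The pyrimidine nucleotide carriers, which supply mitochondria with precursors of DNA and RNA, held the largest rise at 8 h. SLC25A36 (PNC2) read 140, 152, 140 and 144 CPM in DMSO and 360, 357, 342 and 372 CPM in SK-3-91 at 4 h. At 8 h it read 140, 139, 144 and 133 CPM against 569, 560, 564 and 543 CPM. The treated libraries clustered tightly far above the controls, 2.49-fold at 4 h (1.31 ± 0.04) and 4.02-fold at 8 h (2.01 ± 0.04, adjusted p = 1.24e-34). At 1 h, with 132 to 150 CPM in DMSO and 144 to 159 CPM in SK-3-91, the difference was 0.09 ± 0.04 (adjusted p = 0.0606).

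SLC25A33 (PNC1), at a level of 8.05 CPM per kb against 18.1 for SLC25A36 in DMSO at 1 h, began with a fall. Its libraries of 1 h held 11.6 to 14.1 CPM in DMSO and 10 to 11.5 CPM in SK-3-91 (-0.30 ± 0.09). At 4 h it rose to 18.2 to 21.8 CPM from 12.2 to 14.3 CPM (0.59 ± 0.09). At 8 h it read 11.5, 12, 13.1 and 13.7 CPM in DMSO and 36, 35.5, 31.7 and 27.3 CPM in SK-3-91, groups that were well apart (1.38 ± 0.09, adjusted p = 4.11e-18). Of its 32-base words, 31.15% recur in other genes, which makes its counts uncertain.

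**Figure D3:**
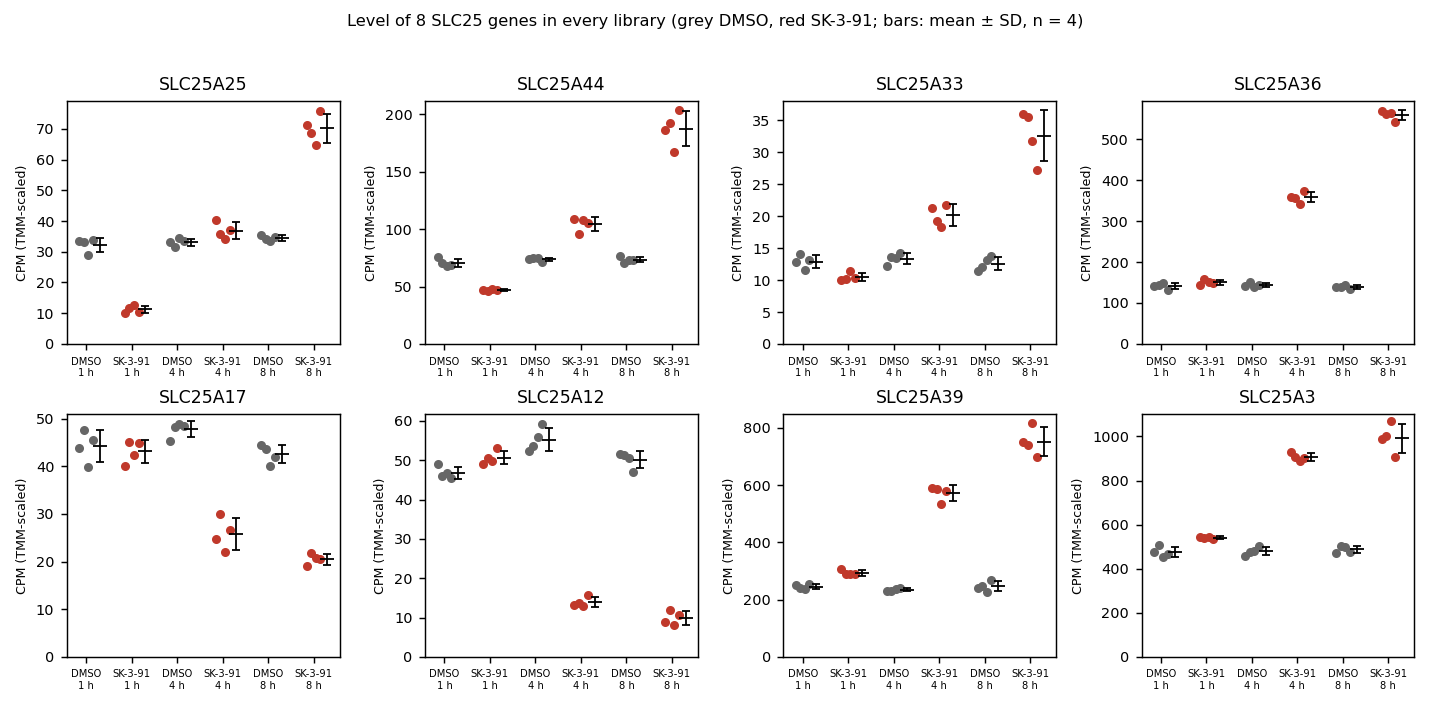
TMM-scaled CPM of 8 SLC25 genes in every library, by treatment and time; grey points are DMSO, red points SK-3-91, bars mean ± SD of 4 libraries, and each axis starts at 0. SLC25A25, SLC25A44 and SLC25A33 lie below DMSO at 1 h and above it at 8 h (SLC25A25 overlaps DMSO at 4 h, where its direction turns without scaling factors), SLC25A36, SLC25A39 and SLC25A3 climb, and SLC25A17 and SLC25A12 drop between 1 and 4 h.

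The mitoferrins bring iron to the matrix for haem and iron-sulphur clusters. Mitoferrin-2, SLC25A28, fell at 1 h from 53.7, 52.9, 56.2 and 57.5 CPM to 40.6, 40.2, 38.9 and 36.4 CPM. The groups were apart, at -0.50 ± 0.06 (adjusted p = 3.89e-09). It was 0.23 ± 0.06 higher at 4 h, a direction that turned to -0.07 without scaling factors, and 0.55 ± 0.06 higher at 8 h (42 to 47.6 against 56.6 to 74.5 CPM), a call lost without them. Mitoferrin-1, SLC25A37, was 0.17 ± 0.05 and 0.20 ± 0.05 higher at 4 and 8 h, and these turned to -0.13 and -0.23 without scaling factors.

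SLC25A30 (KMCP1), a relative of the uncoupling proteins, fell at 1 h from 33.4, 35, 31.1 and 34.1 CPM to 20.5, 22.4, 20.7 and 22.3 CPM, without overlap (-0.64 ± 0.06, adjusted p = 6.49e-12), and was still lower at 4 h (-0.48 ± 0.06). Its 8 h difference of 0.17 ± 0.06 (adjusted p = 0.0133) turned to -0.27 without scaling factors and lost its call without DMSO 8 h replicate 4 (adjusted p = 0.0782) or SK-3-91 8 h replicate 2 (adjusted p = 0.0613). With TMM, SLC25A14 (UCP5) was the member that passed no test against DMSO, at 0.12 ± 0.09, -0.01 ± 0.10 and -0.14 ± 0.12. Without scaling factors it was called lower at 4 h (-0.313, adjusted p = 0.00424) and 8 h (-0.565, adjusted p = 3.48e-05). Upper-quartile factors gave -0.301 at 8 h (adjusted p = 0.0194).

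SLC25A20, which carries acylcarnitines for fatty acid oxidation, fell by 0.34 ± 0.07 at 8 h. Its rise of 0.20 ± 0.06 at 4 h turned to -0.09 without scaling factors, and that of 0.15 ± 0.06 at 1 h lost its call there and without any 1 of DMSO 1 h replicates 3 and 4 and SK-3-91 1 h replicates 3 and 4 (adjusted p of 0.0524 to 0.109). SLC25A46 fell at 4 and 8 h (-0.47 ± 0.05 and -0.56 ± 0.05). Of the members without a settled substrate, SLC25A35 was higher at 4 and 8 h by 0.23 ± 0.06 and 0.17 ± 0.06, both of which turned without scaling factors (-0.07 and -0.26); its 8 h call was lost without SK-3-91 8 h replicate 1 (adjusted p = 0.0548), and exons of RANGRF lie opposite 33.18% of its exon bases. SLC25A45 was 0.23 ± 0.11 lower at 8 h on the log2 scale (adjusted p = 0.0396). That became 0.0913 to 0.158 without DMSO 8 h replicate 4 or SK-3-91 8 h replicates 2 and 4 in turn. RLE factors gave -0.137 at 8 h (adjusted p = 0.215). The 4 h value of SLC25A45, 0.11 ± 0.09 (adjusted p = 0.269), turned to -0.191 without scaling factors (adjusted p = 0.0499).

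Related carriers were also compared by the log2 ratio of their counts within each library, a value on which the scaling factors have no bearing. Over 10 pairs and 3 times, 22 of 30 ratios differed between SK-3-91 and DMSO (exact two-sided permutation test of 4 against 4 libraries, Benjamini-Hochberg adjusted p = 0.039). Each of the 22 had an exact p of 0.0286, the smallest this design allows. Such ratios were not computed for pairs of other genes. As 41.3% of all genes were called higher and 48.1% lower at 8 h, the count is not read as particular to related carriers. The ratio of the adenine nucleotide carriers SLC25A4 and SLC25A5 differed by -0.02 at 1 h (exact p = 0.629) and shifted towards SLC25A5 by 0.87 and 0.93 log2 units at 4 and 8 h. The glutathione carriers shifted towards SLC25A39, by 1.48 at 4 h and 1.91 at 8 h, from a ratio to SLC25A40 of 1.27 ± 0.11 in DMSO to 3.18 ± 0.08 in SK-3-91 at 8 h (SD, n = 4).

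The ratio of aralar to citrin was 3.07 ± 0.105 in DMSO and 3.34 ± 0.123 in SK-3-91 at 1 h, a difference of 0.27 (exact p = 0.0286). At 4 h the direction was opposite, with 3.68 ± 0.09 in DMSO and 2.04 ± 0.33 in SK-3-91, a difference of -1.64. At 8 h it was 3.48 ± 0.17 and 2.36 ± 0.68, a difference of -1.13 that did not pass (exact p = 0.0571, adjusted p = 0.0714), with SK-3-91 8 h replicate 1 at 3.29 inside the DMSO range. SLC25A16 gained on SLC25A42, by 1.29 and 1.59 at 4 and 8 h, from ratios of -1.14 ± 0.10 and -1.54 ± 0.23 in DMSO to 0.15 ± 0.12 and 0.05 ± 0.17 in SK-3-91. Mitoferrin-2 to mitoferrin-1 moved by -0.52 at 1 h and by 0.34 at 8 h, in opposite directions, with 0.06 at 4 h (exact p = 0.429).

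Within the calcium-regulated trio, SLC25A24 to SLC25A25 rose by 1.63 at 1 h and was 1.08 lower than in DMSO at 8 h, and differed by 0.14 at 4 h (exact p = 0.114). SLC25A23 exceeded SLC25A25 by 1.84 and 0.92 log2 units more than in DMSO at 1 and 4 h, and by 0.03 at 8 h (exact p = 0.83). SLC25A33 to SLC25A36 was lower with SK-3-91 at each time, by -0.39, -0.72 and -0.64. SLC25A14 to SLC25A30 was 0.75 and 0.47 higher at 1 and 4 h, with -0.29 at 8 h (exact p = 0.143).

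**Figure D4:**
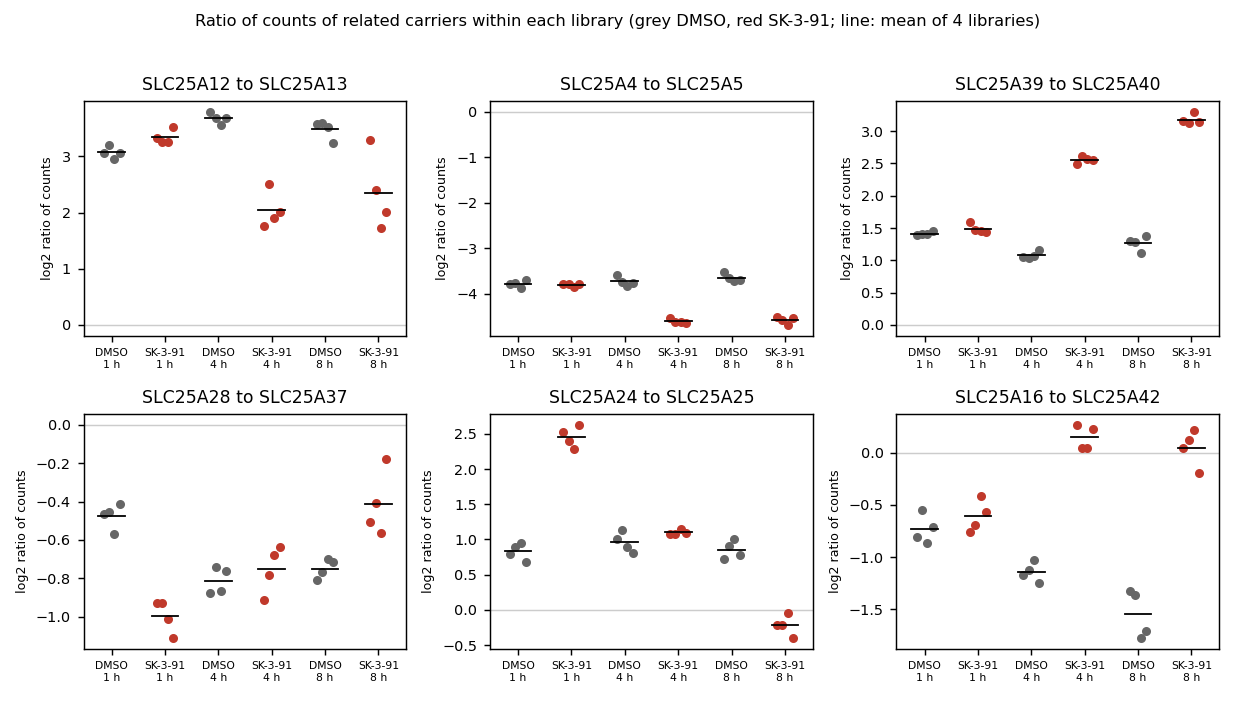
Log2 ratio of counts of 6 pairs of related SLC25 genes in every library, by treatment and time; grey points are DMSO, red points SK-3-91, the line is the mean of 4 libraries, and 0 marks equal counts. SLC25A24 to SLC25A25 is above DMSO at 1 h and below it at 8 h, and SLC25A39 to SLC25A40 rises from 1.27 in DMSO to 3.18 in SK-3-91 at 8 h.

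Across the time course, 6 members (17.1%) were called lower at 1 h and higher at 8 h, beside 9.93% of all genes: SLC25A25, SLC25A26, SLC25A28, SLC25A30, SLC25A33 and SLC25A44, of which SLC25A30 turned to lower at 8 h without scaling factors. The opposite course, called higher at 1 h and lower at 8 h, was taken by 4 members (11.4%) beside 7.9% of all genes: SLC25A4, SLC25A11, SLC25A20 and SLC25A40. Another 6 members (17.1% beside 18.5% of all genes) had no passing difference at 1 h and were lower at both later times, SLC25A12, SLC25A13, SLC25A17, SLC25A32, SLC25A42 and SLC25A46. SLC25A1, SLC25A3, SLC25A5, SLC25A23, SLC25A39 and SLC25A25-AS1 were higher at all 3 times (17.1% beside 14.7%), SLC25A5 excepted at 8 h without scaling factors.

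Tested directly, the response differed between 1 and 4 h in 27 members, 16 towards higher (45.7% beside 40.6% of all genes) and 11 towards lower (31.4% beside 39.9%). The steepest were SLC25A12 at -2.10 ± 0.09, the scarce SLC25A21 at -1.85 ± 0.31 and SLC25A25 at 1.68 ± 0.10 log2 units. Between 4 and 8 h it differed in 24 members, 13 towards higher (37.1% beside 35.6%) and 11 towards lower (31.4% beside 33%), led by SLC25A25 at 0.87 ± 0.09, SLC25A44 at 0.85 ± 0.07, SLC25A11 at -0.83 ± 0.07 and SLC25A13 at -0.82 ± 0.27 (adjusted p of 0.0598 without SK-3-91 8 h replicate 1). Without scaling factors the splits were 14 higher and 16 lower for 1 to 4 h (40% and 45.7% beside 27.2% and 52.9% of all genes) and 10 higher and 16 lower for 4 to 8 h (28.6% and 45.7% beside 27.5% and 41.9%); RLE and upper-quartile factors gave 15 and 9, and 11 and 14, for the latter, where 38.4% and 30.2%, and 29.1% and 40.1%, of all genes were called.

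Carriers also drifted in DMSO alone. From 1 to 4 h, 7 members rose (20% beside 16% of all genes) and 4 fell (11.4% beside 19.1%). SLC25A42 rose by 0.39 ± 0.06, from 25.6 to 28.9 CPM to 34.5 to 36 CPM, and SLC25A28 fell by 0.39 ± 0.06, from 52.9 to 57.5 CPM to 40.8 to 44.6 CPM. From 4 to 8 h, 4 rose (11.4% beside 15.9%) and 10 fell (28.6% beside 14.8%), among them SLC25A16 by 0.31 ± 0.08, SLC25A32 by 0.27 ± 0.05 and SLC25A46 by 0.22 ± 0.05, while SLC25A1 rose by 0.39 ± 0.05. Without scaling factors 2 rose and 10 fell in the second interval (5.71% and 28.6% beside 12.9% and 18.6%). Leaving out DMSO 4 h replicate 3 left 2 and 6 (5.71% and 17.1% beside 13.2% and 11.9% of all genes). Leaving out DMSO 4 h replicate 1 or DMSO 8 h replicate 1 or 4 left 2 that rose. These were 5.71% of members, beside 13.2%, 14.1% and 12.4% of all genes in turn.

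Genes around the carriers are given for context, from lists that were described and not tested as sets. Their counts and medians are to be read beside those of all genes. Of all genes, 24.9% were called higher and 29.4% lower at 1 h, 42% and 45.9% at 4 h, and 41.3% and 48.1% at 8 h. The median log2 fold changes of all genes were 0.01, -0.05 and -0.11. The 3 measured family members with other names are the uncoupling protein UCP2 and the outer-membrane proteins MTCH1 and MTCH2, the latter an insertase. All 3 rose at 1 and 4 h. UCP2 stood at 0.22 ± 0.05, 0.83 ± 0.05 and 0.66 ± 0.05 at 1, 4 and 8 h, MTCH1 at 0.22 ± 0.04, 0.90 ± 0.04 and 1.00 ± 0.04, and MTCH2 at 0.20 ± 0.04, 0.49 ± 0.04 and -0.45 ± 0.04.

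Of 21 measured other transporters and channels of mitochondria, 10 were higher and 1 lower at 1 h, 13 and 7 at 4 h, and 10 and 10 at 8 h, with median log2 fold changes of 0.12, 0.33 and 0.02. The pore of the calcium uniporter, MCU, rose by 0.57 ± 0.06 and 1.21 ± 0.06 at 4 and 8 h, and its partner SMDT1 by 1.14 ± 0.06 and 1.24 ± 0.06. CCDC51, a subunit of a mitochondrial potassium channel, fell by 2.65 ± 0.12 and 2.69 ± 0.14.

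Protein import through TOM, TIM22 and TIM23 had 21 measured genes, of which 8 were higher and 4 lower at 1 h, 8 and 11 at 4 h, and 6 and 13 at 8 h (medians 0.01, -0.22 and -0.20). TIMM9, a chaperone that hands carriers to TIM22, fell by 2.66 ± 0.09 and 2.65 ± 0.10 at 4 and 8 h, though its counts are uncertain because of shared sequence or overlap, and TIMM21 fell by 2.04 ± 0.09 and 2.50 ± 0.10. TOMM7, a small TOM subunit, rose by 1.24 ± 0.06 and 1.75 ± 0.06.

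Enzymes that make or use carried substrates had 33 measured genes, 17 higher and 6 lower at 1 h, 22 and 8 at 4 h, and 14 and 14 at 8 h (medians 0.14, 0.33 and -0.06). ALAS1, the first enzyme of haem synthesis, fell by 0.44 ± 0.06, 1.57 ± 0.07 and 1.56 ± 0.07; CPOX, a later enzyme, fell by 1.06 ± 0.05 and 1.42 ± 0.06 at 4 and 8 h. CPT2, which works beside the acylcarnitine carrier, fell by 2.56 ± 0.12 at 8 h. TWNK, the mitochondrial DNA helicase, fell by 0.54 ± 0.05, 2.21 ± 0.06 and 1.98 ± 0.07.

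Regulators of mitochondrial biogenesis, with 9 measured genes, had 5 lower and 4 not passing at 1 h, 3 higher and 6 lower at 4 h, and 4 higher and 3 lower at 8 h (medians -0.21, -0.42 and 0.07). TFAM, which packages and transcribes mitochondrial DNA, rose by 0.78 ± 0.04 and 1.48 ± 0.04 at 4 and 8 h, and TFB1M, a methyltransferase of mitochondrial ribosomal RNA, fell by 1.45 ± 0.12 and 1.90 ± 0.15. PPARGC1B, a coactivator, fell by 0.43 ± 0.07 at 1 h and rose by 0.77 ± 0.08 at 8 h.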

How the data were processed

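The authors deposited a table of raw counts for each Entrez gene, from single-end reads of 50 bases (per the labels' protocols). Per the submitters' processing notes, edgeR and genome build hg19 were used; aligner, counter and strand setting appear in no source used here. A second deposited table holds log2 values that are the logarithm of a straight line in the counts, with no gene length, although it is named for another unit; it gave symbols and 1 alternative, chosen after seeing the data. The raw counts were fitted in edgeR 4.0.16 (R 4.3.3): TMM, filterByExpr (which removed 0 genes), group means over 24 libraries, quasi-likelihood F tests, Benjamini-Hochberg adjustment over 9822 genes at 0.05. Common biological variation (BCV) was 0.0422. Standard errors come from the F statistic. The fit was also run on simulated counts in which a small part of the genes changed at 4 h, evenly in both directions. That run does not bear on scaling where most genes change, as at 4 and 8 h here.

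Of the 36 matching genes, 1 is not reported here and enters no count of members. The members, gene lists, pairs and tests were chosen with earlier results of these data known. Values in every library are given for, at each time, up to 4 rises and 4 falls, largest by log2 fold change, among members with adjusted p under 0.05, at least 5 CPM in the higher group and no overlap of libraries. Lists name UCP2, MTCH1 and MTCH2, and up to 4 called genes per list, largest at 8 h. In paralogue ratios, 0.5 was added to each count. Shared sequence (32-base words) and overlaps were counted in GENCODE release 29; members at 20% or more are called uncertain (7 of 35). Its build differs from hg19, so gene coordinates are not given; promoters are from RefSeq, GRCh38.p14. Replicate numbers did not pair libraries (correlations of deviations -0.119 to 0.0219).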

Additional observations from a re-analysis of the deposited data

Results flagged for a closer look

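In 11 of 210 groups of 4 libraries, a member's highest or lowest library stood apart from the other 3 by more than Dixon's 95% limit for 4 values; chance alone gives about 1 in 20 groups. In SK-3-91 at 8 h, replicate 3 held 196 CPM of SLC25A1 (168 to 170 in the others) and 164 CPM of SLC25A23 (144 to 147); it is also the shallowest library, at 6.863 megareads, and the part of depth was not tested. In SK-3-91 at 4 h, replicate 2 held 86.0 CPM of SLC25A37 (82.0 to 82.1) and 57.9 CPM of SLC25A38 (51.1 to 52.1). In SK-3-91 at 1 h, replicate 3 held 11.5 CPM of SLC25A33 (10.0 to 10.2) and replicate 1 held 308 CPM of SLC25A39 (288 to 289). Among DMSO libraries, SLC25A16 read 17.5 CPM in 1 h replicate 2 (15.7 to 15.8), SLC25A25 29 CPM in 1 h replicate 3 (33.2 to 33.9), SLC25A17 45.4 CPM in 4 h replicate 1 (48.3 to 48.9), SLC25A37 70.2 CPM in 4 h replicate 2 (75.0 to 75.5) and SLC25A30 31.1 CPM in 8 h replicate 4 (35.8 to 36.2).

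A response is SK-3-91 against DMSO of the same time, so a shift on either side moves it. From 4 to 8 h SLC25A16 went from 25.6 to 25.2 CPM in SK-3-91 and from 16 to 12.8 CPM in DMSO. SLC25A1 went from 170 to 176 CPM in SK-3-91 and from 83.3 to 109 CPM in DMSO (means, n = 4). From 1 to 4 h SLC25A42 went from 26 to 23.1 CPM in SK-3-91 and from 26.9 to 35.2 CPM in DMSO. SLC25A28 went from 39 to 49.4 CPM in SK-3-91 and from 55.1 to 42.1 CPM in DMSO over the same interval. Not all changes in response listed below held in every setting. When some single library was left out, SLC25A24, SLC25A37 and SLC25A38 lost their call from 1 to 4 h. From 4 to 8 h SLC25A12, SLC25A13, SLC25A16, SLC25A29, SLC25A32 and SLC25A45 did. RLE, upper-quartile or no scaling factors also took the 4 to 8 h call from SLC25A16, SLC25A28, SLC25A29, SLC25A32 and SLC25A45. The response to SK-3-91 differed between times in the edgeR test of that difference. From 1 to 4 h it moved up, in log2 units, for SLC25A25 (1.68), SLC25A36 (1.22), SLC25A44 (1.09), SLC25A39 (1.03), SLC25A25-AS1 (0.98), SLC25A33 (0.89), SLC25A1 (0.81), SLC25A23 (0.77), SLC25A3 (0.73), SLC25A28 (0.73), SLC25A26 (0.66), SLC25A51 (0.61), SLC25A16 (0.60), SLC25A5 (0.53), SLC25A24 (0.19) and SLC25A37 (0.15), and down for SLC25A12 (-2.10), SLC25A21 (-1.85), SLC25A17 (-0.85), SLC25A29 (-0.75), SLC25A32 (-0.72), SLC25A42 (-0.56), SLC25A46 (-0.42), SLC25A22 (-0.40), SLC25A40 (-0.38), SLC25A4 (-0.32) and SLC25A38 (-0.17). Of these, SLC25A24 and SLC25A37 turned to -0.09 and -0.13 without scaling factors. From 4 to 8 h it moved up for SLC25A25 (0.87), SLC25A44 (0.85), SLC25A33 (0.79), SLC25A36 (0.69), SLC25A30 (0.64), SLC25A25-AS1 (0.51), SLC25A51 (0.44), SLC25A26 (0.44), SLC25A22 (0.33), SLC25A39 (0.32), SLC25A28 (0.32), SLC25A16 (0.29) and SLC25A29 (0.20), and down for SLC25A11 (-0.83), SLC25A13 (-0.82), SLC25A4 (-0.59), SLC25A20 (-0.55), SLC25A5 (-0.53), SLC25A15 (-0.50), SLC25A24 (-0.35), SLC25A1 (-0.35), SLC25A45 (-0.34), SLC25A12 (-0.33) and SLC25A32 (-0.22).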

How the results depend on the processing

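RLE, upper-quartile and DESeq2 scaling, filters on low counts and fits on the 8 libraries of 1 time kept every count of called members within 1.5 times. Without scaling factors, members called higher at 4 h fell to 11, those lower at 8 h rose to 22 and those rising in DMSO from 4 to 8 h fell to 2; limma-trend on the deposited log2 values, which carry no such factors, gave 11, 22 and 2 as well. Directions turned as follows, where the value passed the test in the reported or the alternative fit. Without scaling factors at 4 h: SLC25A15 -0.0366, SLC25A20 -0.0939, SLC25A24 -0.0054, SLC25A25 -0.143, SLC25A28 -0.0676, SLC25A35 -0.0663, SLC25A37 -0.13, SLC25A11 -0.29 and SLC25A45 -0.19. At 8 h: SLC25A5 -0.25, SLC25A22 -0.34, SLC25A30 -0.27, SLC25A35 -0.26 and SLC25A37 -0.23. For the change in response from 1 to 4 h: SLC25A20 -0.22, SLC25A24 -0.0876 and SLC25A37 -0.13. With limma-trend the 4 h values were SLC25A15 -0.0304, SLC25A20 -0.0647, SLC25A24 -0.00271, SLC25A25 -0.106, SLC25A28 -0.0541, SLC25A35 -0.0517, SLC25A37 -0.11 and SLC25A11 -0.27, the 8 h values SLC25A5 -0.25, SLC25A22 -0.29, SLC25A30 -0.19, SLC25A35 -0.21 and SLC25A37 -0.20, and the changes in response SLC25A20 -0.16, SLC25A24 -0.0739, SLC25A37 -0.11 and, from 4 to 8 h, SLC25A21 0.14. Upper-quartile factors gave SLC25A30 at 8 h -0.00099. Dropping the factors shifts all genes of a comparison together by construction. SLC25A21 did not turn without them (-0.713), and the cause of its turn with limma-trend was not tested.

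Leaving out 1 library at a time gave 10 to 14 higher and 8 lower members at 1 h, 18 to 19 and 11 to 13 at 4 h, and 16 to 17 and 13 to 15 at 8 h. The change in response gave 14 to 17 and 10 to 12 from 1 to 4 h and 11 to 14 and 9 to 13 from 4 to 8 h, and the DMSO drift 6 to 7 and 3 to 4, then 2 to 4 and 6 to 10. With 3 libraries against 4 the exact permutation test of a paralogue ratio cannot go below p = 0.057, so these settings give no call. The number of pairs and times whose groups did not overlap was 22 with every library and 22 to 23 with 1 left out. The replicate block, fitted although replicate numbers did not pair the libraries (0 of 24 correlated best with its own number), changed 1 call against DMSO: SLC25A15 at 1 h, 0.12 with an adjusted p of 0.049 in place of 0.05. With 5 in place of 0.5 added to each count, SLC25A12 to SLC25A13 passed at 8 h (-1.40, exact permutation test, adjusted p = 0.0373). Counts limit SLC25A21 and SLC25A13 most.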
